A study of Mus musculus with 2 samples.

Results

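Expression of 8 genes of autonomic neurons, glia and chromaffin cells, Phox2a, Th, Dbh, Sox10, S100b, Elavl4, Tubb3 and Stmn2, was examined in the ureters of E16.5 mouse embryos. They were chosen by gene name, with earlier results of these data known, and are 8 of the 29895 gene names with values on the arrays. All 8 were measured, by 9 probes, of which Elavl4 has 2. Total RNA was taken from sex-sorted pools of ureters and hybridised to 2 arrays, each read in 2 colours with probes for the whole mouse genome. Each array carried 1 pool of Pparg-cKO ureters, genotype Pax2-cre/+; Pparg(fl/fl), and 1 pool of control ureters, genotype Pparg(fl/?), so the control embryos carry a floxed allele too, and all mice are of the NMRI strain. Array 1 held female and array 2 male pools, with the dyes exchanged between the arrays. A label of the second channel gives E14.5 for the Pparg-cKO pools, whereas titles and protocols give E16.5. The deleter, Pax2-cre, recombines in the nephric duct and in the epithelia of ureter and collecting duct. Neurons and glia are not among the tissues that the study names, and recombination in them was not tested here. A pool averages over several embryos.

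Dyes and genotypes are assigned in conflicting ways. RNA A denotes the RNA labelled with AlexaFluor647 (red) on array 1 and AlexaFluor555 (green) on array 2, and RNA B the other RNA. By the dye labels RNA A is control, but the fold changes that the authors deposited run as RNA A over RNA B, and if they are meant as Pparg-cKO over control, RNA A is Pparg-cKO. Every log2 ratio below is therefore RNA A over RNA B and names no genotype. The labels' direction opposes the one the study used. Values of Upk1a that bear on the direction are given below.

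The ureter is innervated by sympathetic and parasympathetic fibres, and small ganglia lie along the urinary tract. Sympathetic neurons and chromaffin cells both descend from neural crest through progenitors that express Phox2a, and both make noradrenaline from tyrosine through the enzymes encoded by Th, Ddc and Dbh. Chromaffin cells lie mostly in the adrenal medulla and in paraganglia near the aorta. Schwann cells and satellite glia of the same lineage express Sox10. In a bulk RNA pool, fewer cells of a type and less RNA per cell cannot be told apart.

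The genes of the tissue itself were measured at high signal. Upk3a, a uroplakin of the urothelial surface, had processed signals of 30472 to 51988, Acta2, smooth muscle actin, 39606 to 72555, and Bmp4, a growth factor of the ureteric mesenchyme, 6129 to 9974. For Pparg, array 1 gave a signal of 11295 for RNA A against 7430 for RNA B, and array 2 gave 12888 against 7872 (log2 ratio 0.66 ± 0.08, SD, n = 2 arrays, limma adjusted p = 0.611). Its probe was not placed relative to the deleted exons, and a truncated transcript persists in the mutants, so this value checks neither labelling. The sex labels matched. Xist, transcribed from the inactive X chromosome, read 1980 for RNA A and 1651 for RNA B with the female pools, but 3.06 and 2.43 with the male pools. The Y-linked gene Ddx3y read 10.9 and 16.7 with the female pools, but 4794 and 4396 with the male pools. On either array, 80.3% to 80.4% of green and 70.4% of red spots were well above background.

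The sequences below show what was read for Elavl4, whose 2 probes had log2 ratios of opposite sign on each array. The first 30 bases of each probe are given, with no part in capitals, at their mm9 positions on the minus strand. The brighter probe starts within chr4:109877485-109877514 and the dimmer one within chr4:109878588-109878617.
Elavl4, brighter probe: gggaagaagcatattactgtgtccttctgt
Elavl4, dimmer probe: ctttaccaccttccttgaaggtgggtcttt

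The 250 bases before the RefSeq transcription start are shown for Th and Dbh (build GRCm38.p6, RefSeq). They are shown because these enzymes of one pathway shared the sign of the ratio on each array. The log2 ratios were -0.13 and 0.48 for Th, and -0.37 and 0.55 for Dbh. The Th sequence is chr7:142899996-142900245 on the minus strand and the Dbh sequence chr2:27165257-27165506 on the plus strand. Capitals mark matches, on either strand, to the cAMP response element TGACGTCA and to the word CAATTAG, a homeodomain-type core chosen after reading both sequences.
Th: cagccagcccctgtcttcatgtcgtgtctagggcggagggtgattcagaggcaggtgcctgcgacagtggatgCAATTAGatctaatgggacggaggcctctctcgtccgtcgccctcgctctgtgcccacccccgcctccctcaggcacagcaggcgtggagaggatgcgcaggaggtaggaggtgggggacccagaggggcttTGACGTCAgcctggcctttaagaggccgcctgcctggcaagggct
Dbh: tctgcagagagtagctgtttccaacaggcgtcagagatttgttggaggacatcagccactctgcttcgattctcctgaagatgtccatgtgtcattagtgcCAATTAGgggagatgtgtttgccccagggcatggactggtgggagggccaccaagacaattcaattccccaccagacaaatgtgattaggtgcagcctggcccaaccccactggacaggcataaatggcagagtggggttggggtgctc

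The cAMP response element stood at position -45 of Th and was not found in the same window of Dbh, Phox2a, S100b, Elavl4 or Tubb3, and 1.55% of 32851 promoter windows of this length hold it. CAATTAG stood at -177 in Th and at -149 in Dbh, and 1.77% of all windows hold it. The word TAATTA, searched as well, was found in none of the windows of Phox2a, Th and Dbh but in some of those of Elavl4, and 4.84% of windows hold it. None of these words overlaps another in the 2 sequences shown. The promoter table matched 6 of the 8 genes. A match describes the letters and shows no bound factor.

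Of the noradrenergic genes, Phox2a encodes a homeodomain transcription factor that specifies the lineage. Array 1 gave a processed signal of 162 for RNA A against 222 for RNA B, whereas array 2 gave 304 against 210. RNA A thus held both the lowest and the highest of the 4 values, with both RNA B values between them. Log2 ratios were -0.46 (array 1) and 0.53 (array 2), a mean of 0.04 ± 0.70 (SD, n = 2 arrays), with a limma 95% confidence interval from -0.55 to 0.63.

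Th, tyrosine hydroxylase, catalyses the rate-limiting step of catecholamine synthesis. Its signal was 308 for RNA A against 337 for RNA B with the female pools, and 475 against 340 with the male pools. The value for RNA A of array 2 stood above the others, which lay close together. The log2 ratios were -0.13 and 0.48, with a mean of 0.18 ± 0.43 (SD, n = 2 arrays) and an interval from -0.33 to 0.68.

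Dbh, dopamine beta-hydroxylase, converts dopamine to noradrenaline. On array 1 it read 211 for RNA A against 272 for RNA B, and on array 2 it read 413 against 282. As for Phox2a and Th, RNA A held the lowest value on array 1 and the highest on array 2. Log2 ratios of -0.37 and 0.55 gave a mean of 0.09 ± 0.65 (SD, n = 2 arrays), with an interval from -0.48 to 0.66.

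Of the glial genes, Sox10, a transcription factor required for all peripheral glia, read 202 for RNA A against 203 for RNA B with the female pools, and 259 against 220 with the male pools. Its log2 ratios were -0.01 and 0.24 (mean 0.11 ± 0.18, SD, n = 2 arrays, interval -0.35 to 0.57), so array 1 alone showed no separation of the RNAs beyond the SD of 0.03 over its spots. S100b, a calcium-binding protein of Schwann cells and other glia, read 1127 for RNA A against 905 for RNA B on array 1, and 1067 against 976 on array 2. Both RNA A values lay above both RNA B values, which held for no other of the 8 genes. Its log2 ratios were 0.32 and 0.13, a mean of 0.22 ± 0.13 (SD, n = 2 arrays, interval -0.23 to 0.68). Among all tested genes the RNAs did not overlap for 24.1%, a share that 1 gene of 8 does not exceed.

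Of the pan-neuronal genes, Tubb3, the neuronal beta-tubulin, had the largest gap between the arrays by the brightest probe of each gene. RNA A gave 132 against 159 for RNA B on array 1, and 206 against 125 on array 2. The log2 ratio of 0.73 on array 2 was 1.65-fold, the only one past 1.5-fold on either array by the brightest probes, while array 1 gave -0.27. The mean was 0.23 ± 0.70 (SD, n = 2 arrays), with an interval from -0.36 to 0.82. Stmn2, a microtubule-destabilising protein of growing axons, read 1707 for RNA A against 1737 for RNA B with the female pools, and 1767 against 1598 with the male pools. All 4 values were close, with log2 ratios of -0.02 and 0.15 (mean 0.06 ± 0.12, SD, n = 2 arrays, interval -0.39 to 0.51).

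Elavl4 encodes HuD, a neuronal RNA-binding protein. Its brighter probe read 381 for RNA A against 324 for RNA B on array 1, and 289 against 381 on array 2, the reverse of the order seen for Phox2a, Th and Dbh. The log2 ratios were 0.23 and -0.40 (mean -0.08 ± 0.45, SD, n = 2 arrays, interval -0.59 to 0.43). The dimmer probe read 50.6 against 76.8 on array 1 and 68.8 against 48.1 on array 2, which gave log2 ratios of -0.60 (1.52-fold) and 0.52 and a mean of -0.04 ± 0.79 (SD, n = 2 arrays). The means of the 2 Elavl4 probes were near each other, but the sign on each single array was opposite.

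**Figure D1:**
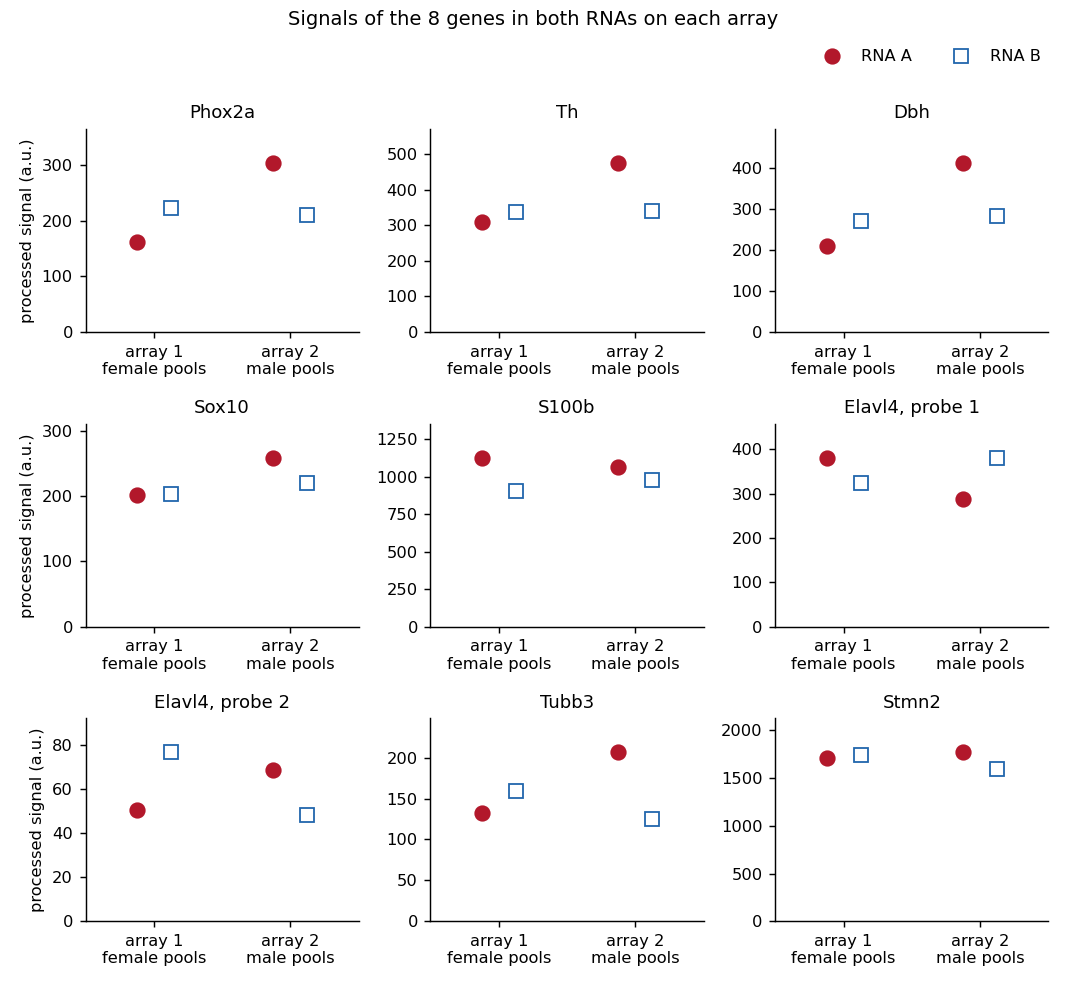
Processed signal (vertical axis, arbitrary units, from 0) of each of the 9 probes on array 1 (female pools) and array 2 (male pools), with RNA A as filled circles and RNA B as open squares, 1 pool per point. For Phox2a, Th, Dbh and Tubb3 the RNA A point lies below RNA B on array 1 and above it on array 2, whereas for S100b both RNA A points lie above both RNA B points.

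No gene of the 8 was called as different between the RNAs. By limma, fitted over 21371 genes that were well above background, 0 of the 8 genes passed an adjusted p of 0.05, where 0.314% of all tested genes did. None had an unadjusted p under 0.05, the lowest being 0.293 for S100b, and all 8 adjusted p-values were 1.00. The fold rule asked that both arrays show a difference of 1.5-fold or more with the same sign, and that the brighter RNA reach a signal of 100. By it, 0 of the 8 passed in either direction, where 0.388% of all genes did. The intervals leave room for differences of up to 1.76-fold (Tubb3). The median log2 ratio of the 8 genes was 0.10, beside 0.01 over all tested genes, and the mean ratio was above 0 for 7 of them. With 2 arrays, p-values rest on 1 residual degree of freedom and on the spread shared among genes.

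The sign of the ratio changed between the arrays in most of these genes. In 7 of the 8 genes the log2 ratio had opposite signs on the 2 arrays, as in 61.0% of all tested genes. In 6 of these, Phox2a, Th, Dbh, Sox10, Tubb3 and Stmn2, the green dye was brighter on both arrays, which held for 32.6% of all tested genes, and for Elavl4 the red dye was. Because genes and lists were chosen with earlier results of these data known, such shares describe a pattern and test nothing. Median log2 ratios of the 8 genes were -0.08 on array 1 and 0.36 on array 2, beside 0.00 and 0.03 over all genes tested.

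The difference between the ratios of the 2 arrays, divided by 2, is called the array term below. It holds whatever follows the dye or the sex of the pools, and also the scatter between single pools and hybridisations. Its median size was 0.31 for the 8 genes and 0.15 for all tested genes. The size of the mean ratio itself had a median of 0.10 in both. Array terms at least as large as those of Phox2a (-0.49), Tubb3 (-0.50) and Dbh (-0.46) were found in 5.20%, 5.06% and 6.69% of tested genes. The SD of the log2 ratio over the spots of 1 array was 0.02 to 0.10 for the brightest probes and up to 0.16 for the dimmer Elavl4 probe, which is technical error and leaves out the spread between pools. Dye and sex changed together, and neither can be told apart from the other or from scatter between single pools.

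**Figure D2:**
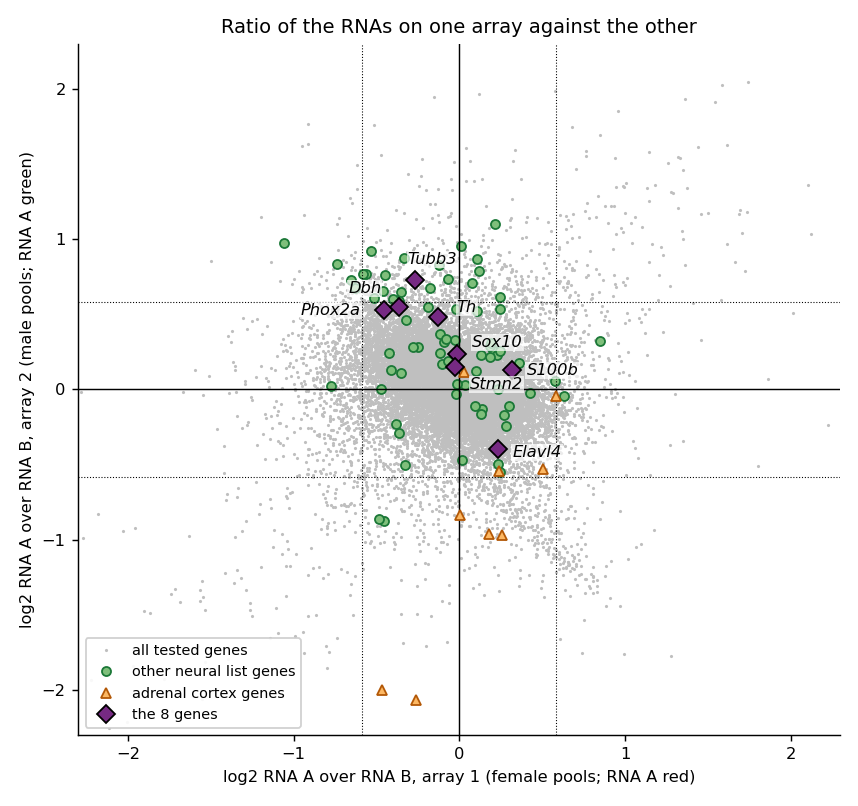
Log2 ratio of RNA A over RNA B on array 1 (horizontal axis) against array 2 (vertical axis), 1 point per gene, for all tested genes (grey), other genes of the neural lists (green circles), adrenal cortex genes (orange triangles) and the 8 genes (purple diamonds), with dotted lines at 1.5-fold. Points outside the axes are not drawn, and 6 of the 8 genes lie in the upper left quadrant, where the green dye was brighter on both arrays.

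The wider neural and chromaffin programme was read from 8 lists, which hold 84 genes besides the 8, all found on the arrays. In these lists 76 genes were well above background, and none was called by limma or passed the fold rule in either direction. At an unadjusted p under 0.05 there were 4 by limma, where 3.78% of all tested genes reached that level. Rbfox3, a neuronal splicing factor, had log2 ratios of -0.49 and -0.86, and Pnmt, which makes adrenaline from noradrenaline, -0.46 and -0.88 at signals of 11.0 to 20.3. Syt1, a synaptic vesicle protein, had 0.21 and 1.10, and Calcb, a neuropeptide of sensory neurons, 0.85 and 0.32. Their limma adjusted p-values were 0.640 for Rbfox3, 0.675 for Pnmt, and 1.00 for Syt1 and Calcb. Rbfox3, Pnmt and Syt1 were chosen after their values were seen.

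The neural list genes shared the sign pattern of the 8 to differing degrees. Of the 76 genes, 38 were brighter in green on both arrays, 11 in red, 6 in RNA B and 21 in RNA A. The lists had median log2 ratios of -0.05 on array 1 and 0.27 on array 2. Of 28 tested genes of the noradrenergic, catecholamine and granule lists other than Phox2a, Th and Dbh, 20 were brighter in green on both arrays. In 24 of the 28, RNA A of array 2 was the highest of the 4 values, which held for 36.8% of all tested genes. The same was true of 6 of the 8 genes. These lists, too, were chosen with earlier results of these data known.

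In the noradrenergic list, 9 of 11 genes, Phox2a included, were brighter in green on both arrays, with medians of -0.35 and 0.53. Sox4, a transcription factor shared by many embryonic tissues, had log2 ratios of -0.63 and 0.68 at the highest signals of the list, 7026 to 11580. Eya1, a cofactor that is also widely expressed, had 0.01 and -0.47. Insm1, a zinc-finger factor of endocrine progenitors, had -0.54 and 0.92 and was chosen after its values were seen.

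In the catecholamine list, 8 of 10 genes, Th and Dbh included, were brighter in green on both arrays. Ddc, which makes dopamine from L-DOPA, had log2 ratios of -0.12 and 0.24 and Cyb561, an electron carrier of the granule membrane that supplies Dbh with ascorbate, -0.10 and 0.31. The vesicular monoamine transporters Slc18a1 and Slc18a2 had -0.57 and 0.77, and -0.46 and 0.66 (chosen after their values were seen). Summed over the list, signals were 5135 for RNA A against 5559 for RNA B with the female pools, and 6360 against 5104 with the male pools.

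Of 10 tested granule and neuropeptide genes, 6 were brighter in green, and 3 in RNA A, on both arrays. Penk, which encodes the enkephalin precursor, was the brightest at 33950 to 39700, with log2 ratios of 0.10 and 0.12. Which cells gave the Penk signal was not tested. Chgb, a granin of dense-core vesicles, read 461 for RNA A against 690 for RNA B on array 1, and 1022 against 600 on array 2. Its ratios of -0.58 and 0.77 resembled those of Chga, the other major granin, at -0.65 and 0.73 (chosen after its values were seen).

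In the pan-neuronal list 11 of 22 genes, Tubb3 and Stmn2 included, were brighter in green on both arrays and 5 in RNA A. Ncam1, a neural cell adhesion molecule, had log2 ratios of -0.41 and 0.13, and Snap25, a vesicle fusion protein, 0.23 and -0.50. Gap43, a growth cone protein chosen after its values were seen, had 0.13 and 0.23. Of 15 tested glial genes, 6 were brighter in green and 5 in RNA A on both arrays. Pmp22, a myelin protein of Schwann cells, had -0.02 and -0.03. Its signals were 13503 to 13786, beside 202 to 259 for Sox10, and which cells gave them was not tested. Gfra3, a neurotrophic receptor subunit chosen after its values were seen, had 0.23 and 0.23.

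Receptor, cholinergic and sensory genes were few and mostly dim. The mean log2 ratio was above 0 in 3 of 6 tested ganglion receptor genes, 5 of 5 cholinergic and nitrergic genes and 5 of 5 sensory genes, and RNA A was brighter on both arrays in 2, 3 and 2 of them. The green dye was brighter on both arrays for 1 of 6 tested ganglion receptor genes, 1 of 5 cholinergic and nitrergic genes and 2 of 5 sensory genes. The neurotrophin receptor Ntrk2 had log2 ratios of 0.28 and -0.24, and the GDNF family receptor Gfra2 -0.42 and 0.24. Chat, which makes acetylcholine, was measured at 65.9 to 90.3 with -0.01 and 0.04, and Slc5a7, the choline transporter, at 33.8 to 42.6 with 0.27 and -0.17. Calca, the precursor of calcitonin gene-related peptide, had 0.30 and -0.11. The nicotinic receptor genes Chrna3 and Chrnb2, the cholinesterase gene Ache and the sensory genes Trpv1, Scn10a and Avil were too dim to be tested, as was Pcsk1, a prohormone convertase.

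**Figure D3:**
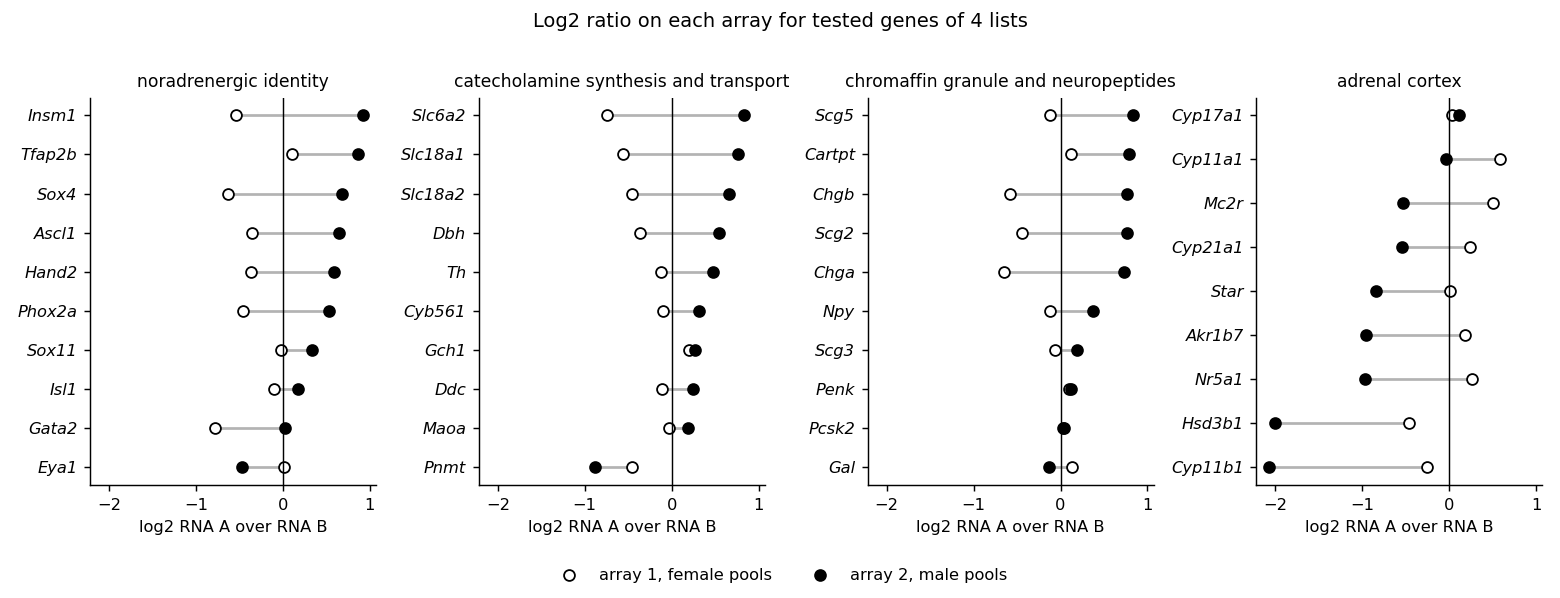
Log2 ratio of RNA A over RNA B (horizontal axis) of 10 of the 11 tested noradrenergic genes and of all tested genes of the catecholamine, granule and adrenal cortex lists, on array 1 (open circles, female pools) and array 2 (filled circles, male pools), joined by a line. In the noradrenergic list 8 of the 10 genes drawn have the open circle left of 0 and the filled circle right of it, and in the adrenal cortex list the filled circle lies left of 0 in 8 of 9 genes.

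By distance between the pairs of array ratios, the other neural genes most like Th were Ina (an intermediate filament, distance 0.09), Npy (a sympathetic neuropeptide, 0.11) and Stmn4 (a stathmin, 0.12). Those most like Sox10 were Maoa (monoamine oxidase, 0.05), Scg3 (a secretogranin, 0.07) and Sox11 (a neuronal transcription factor, 0.09). Each distance spans 2 arrays only.

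Probes of one gene did not always share the sign of the array term. Of 20 neural list genes with more than 1 measured probe, 8 had array terms of opposite sign in their probes, among them Elavl4 (0.32 and -0.56). The 2 probes of Slc18a2, by contrast, had -0.56 and -0.45.

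Values of other cell types differed between the arrays too. The adrenal cortex list, whose tissue surrounds the main site of chromaffin cells, was well above background for 9 of 9 genes but at low signal, summing to 596 for RNA A against 531 for RNA B with the female pools, and to 386 against 685 with the male pools. RNA A of array 2 was the lowest of the 4 values in 7 of the 9 genes, where 16.0% of all tested genes had it lowest. Some of the 9 read near the floor, such as Star at 8.5 to 15.1 and Cyp11a1 at 12.5 to 18.8, whereas Akr1b7 read 115 to 227. Signals near background had been replaced by surrogate values in 15.2% of red and 8.0% of green spots on array 1. Whether dim genes lean to 1 dye was not tested, so the share over all tested genes is no matched background. Median log2 ratios were 0.18 (array 1) and -0.84 (array 2). Nr5a1, the steroidogenic factor gene, had 0.26 and -0.97, and Akr1b7, a reductase of the cortex, 0.18 and -0.96. Hsd3b1 (-0.47 and -2.00) and Cyp11b1 (-0.26 and -2.07), steroid-synthesis enzymes chosen after their values were seen, had limma adjusted p-values of 0.442 and 0.679. On array 2, where Phox2a, Th and Dbh were brighter in RNA A, these cortex genes were thus brighter in RNA B, and their part in the ratios of the 8 genes was not tested.

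RNA B was brighter on both arrays for 7 of 9 smooth muscle genes (median log2 ratio -0.58) and 4 of 8 urothelial genes (-0.39), and for 17.4% of all tested genes. Summed smooth muscle signals were 80211 for RNA A against 102179 for RNA B on array 1, and 77816 against 133178 on array 2. Acta2 had log2 ratios of -0.24 and -0.87, Tagln, another smooth muscle protein, -0.43 and -0.70, Upk3a -0.64 and -0.77 and Upk2 -0.40 and -0.74. None of these 4 genes passed limma, with adjusted p-values from 0.511 to 1.00, although Upk3a passed the fold rule. Upk1a, a further uroplakin chosen after its values were seen, passed both, with -1.42 and -1.22 (limma adjusted p = 0.0445). By RNA in situ hybridisation the study found Upk1a strongly reduced or lost in Pparg-cKO ureters. Here it was lower in RNA A on both arrays, which is the same direction if RNA A is Pparg-cKO. At an unadjusted p under 0.05 there were 7 of 9 smooth muscle and 4 of 8 urothelial genes. How far the make-up of the pools bears on the 8 genes was not tested.

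The remaining cell types were measured as follows. The mesenchymal genes Bmp4 and Tcf21 had log2 ratios of -0.33 and 0.11, and of 0.10 and -0.19. Endothelial Kdr and Cdh5 had -0.07 and 0.15, and -0.44 and 0.21. Macrophage genes Csf1r and Lyz2 had 0.18 and 0.13, and 0.69 and 0.10. Of the nephron list, 3 of 6 genes were bright enough to be tested, and in all 3 RNA B exceeded RNA A on each array (median log2 ratio -1.15), 1 of them called by limma. This gene, Slc34a1, a phosphate transporter of the proximal tubule chosen after its values were seen, read 6.2 for RNA A against 30.8 for RNA B on array 1, and 4.2 against 37.2 on array 2 (limma adjusted p = 0.0120). In RNA A only a share of 0.25 of its spots on array 1 and 0.67 on array 2 were well above background. The size of its ratio is therefore uncertain. Lrp2, an endocytic receptor of the same tubule, had log2 ratios of -0.23 and -0.47. The haemoglobin genes Hba-a1 and Hbb-b1 had 0.19 and -0.17, and -0.15 and 0.35.

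The level on each array was averaged over both RNAs, and so over both dyes, and set male beside female pools. With 1 array for each sex there is no test, and sex, array and make-up of the pools cannot be told apart. This comparison was chosen after seeing the data. Relative to the median of all tested genes, the log2 level of Dbh was higher on array 2 by 0.43, of Phox2a by 0.33 and of Th by 0.24. Differences of at least these sizes were found in 6.73%, 11.1% and 19.5% of tested genes, in either direction. Sox10 had 0.16, Tubb3 0.07, S100b -0.06, Stmn2 -0.11 and Elavl4 -0.16.

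The 8 genes had a median of 0.11, and the 28 noradrenergic, catecholamine and granule genes other than Phox2a, Th and Dbh a median of 0.02, with 15 of 28 above 0. Chgb had 0.39, Insm1 0.38 and Chga 0.24, whereas Sox4 had -0.01, Ddc -0.04 and Cyb561 -0.03. In the red blood cell list the median was -0.75 and in the smooth muscle list 0.33.

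**Figure D4:**
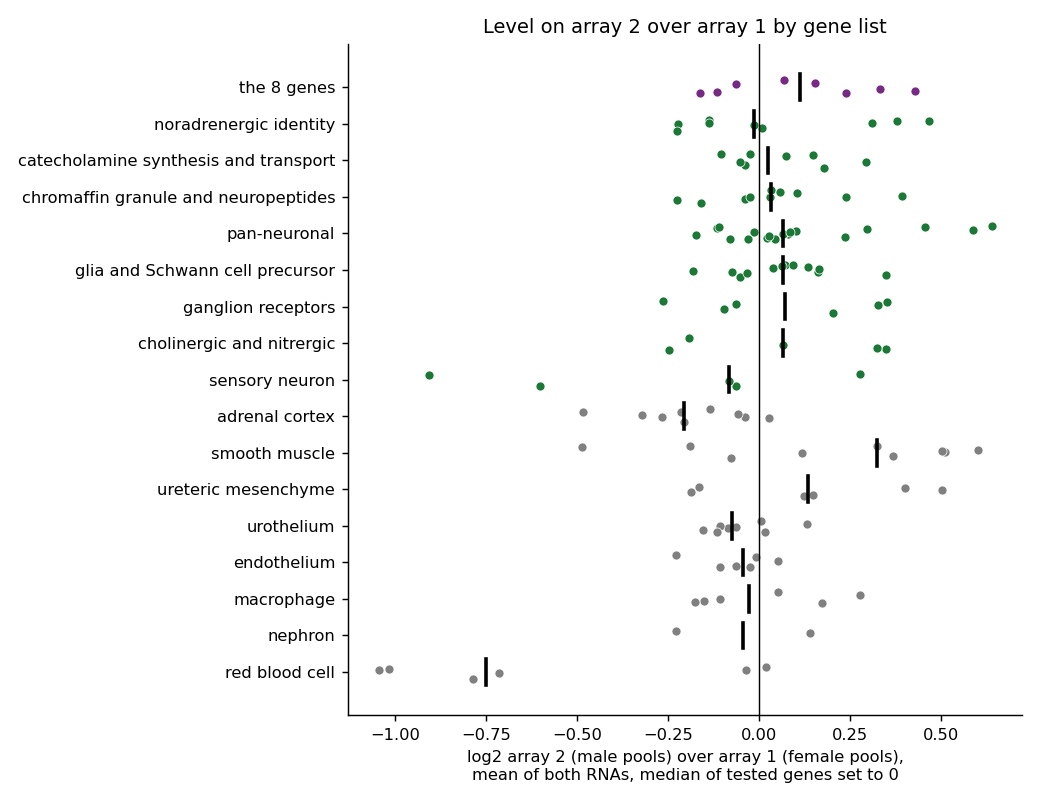
Log2 level on array 2 (male pools) over array 1 (female pools), averaged over both RNAs and set to 0 at the median of tested genes (horizontal axis), for the 8 genes (purple), the other genes of the 8 neural lists (green) and genes of other cell types (grey), 1 point per tested gene, a few list genes left out, with the median of the points drawn as a black bar. The 8 genes run from -0.16 (Elavl4) to 0.43 (Dbh), with Phox2a and Th between.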

How the data were processed

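Samples were grouped by the labels as 2 arrays of 1 comparison. The authors' deposited processed intensities were made with Agilent Feature Extraction 10.7.3.1 (per the file headers), which subtracts background, replaces signals near it by surrogates and normalises the dyes by a linear step and LOWESS. Because dyes had been equalised over all probes, the dye differences of single probes remain. The deposited log10 ratio was used only to check the dyes. The authors' deposited signed fold changes (unit score, direction not stated) served as an alternative, and correlated at 0.997 with RNA A over RNA B on each array. The deposited mean and background intensities entered only the normexp alternative.

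Control spots and flagged spots (5705 on array 1, 5579 on array 2) were left out. The log2 signals of the 4 spots of each probe were averaged. Where a gene had several probes the brightest stood for it, and it was tested where at least 0.5 of its spots were well above background in one RNA on both arrays. limma 3.58.1 (R 4.3.3; intercept, eBayes, Benjamini-Hochberg) was fitted over all tested genes, and its steps were tested on simulated data. The thresholds of the fold rule, a signal of 100 and 1.5-fold, follow the study's methods, with the signal applied to the brighter RNA on both arrays. Values are mean ± SD over the 2 arrays. Each array pairs its pools, so the ratio is the paired value. Nothing says whether the pools share litters. The p-values rest on the spread between the 2 arrays, which holds differences of pools, dye and sex together. The number of pools limits the precision.

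Named are the 8 genes with every probe, the 2 brightest genes of each list, neural genes past the fold rule, the 3 nearest to Th and to Sox10, Pparg and the sex check genes. A few list genes are not reported here: they enter the counts and medians of lists but are neither named nor drawn. Other names were chosen after their values were seen. The 8 genes and all lists were chosen with earlier results of these data known. Alternatives were normexp (offset 50) with loess, loess on processed signals, median centring, the deposited fold changes, the mean over all probes, no filter on dim probes, flagged spots kept, an intensity trend, signal thresholds of 50 and 200, 2-fold, and leaving out each array. Positions of probes are those of the files (mm9). Promoter sequences are RefSeq's for GRCm38.p6, and gene models were not used. Python 3.11.15, pandas 2.3.3, the data.table package (version 1.17.8) and matplotlib 3.10.9 were used.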

Additional observations from a re-analysis of the deposited data

Results flagged for a closer look

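Genes whose log2 ratio of RNA A over RNA B took opposite signs on the female (array 1) and the male (array 2) pools are listed by the ratio on array 1 minus that on array 2. With 1 array per sex the difference was not tested, and dye, sex and scatter between single pools cannot be told apart. Opposite signs were found in 61.0% of all tested genes.

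Among the 8 genes the difference was -0.99 for Phox2a, -0.61 for Th, -0.91 for Dbh, -0.25 for Sox10, -0.99 for Tubb3 and -0.17 for Stmn2. For Elavl4 it was 0.63 with the brighter and -1.12 with the dimmer probe.

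Of the other named genes, 22 neural ones showed it. Noradrenergic genes had differences of -1.31 (Sox4), 0.48 (Eya1), -0.35 (Sox11) and -1.46 (Insm1). The catecholamine genes had -0.41 (Cyb561), -0.36 (Ddc), -0.22 (Maoa), -1.33 (Slc18a1) and -1.11 (Slc18a2). In the granule list the values were -1.35 (Chgb), -1.38 (Chga), -0.49 (Npy) and -0.26 (Scg3). Neuronal genes had -0.54 (Ncam1), 0.73 (Snap25), -0.74 (Ina) and -0.56 (Stmn4). Receptor, cholinergic and sensory genes had 0.52 (Ntrk2), -0.66 (Gfra2), -0.050 (Chat), 0.44 (Slc5a7) and 0.41 (Calca).

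The 6 adrenal cortex genes that showed it all had a positive difference, of 1.14 (Akr1b7), 1.23 (Nr5a1), 0.84 (Star), 0.63 (Cyp11a1), 0.78 (Cyp21a1) and 1.04 (Mc2r). In genes of other tissues the values were -0.44 (Bmp4), 0.29 (Tcf21), -0.22 (Kdr), -0.65 (Cdh5), 0.36 (Hba-a1) and -0.51 (Hbb-b1).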

How the results depend on the processing

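No alternative with both arrays called any of the 8 genes by limma or passed any of them, or any of the 84 other neural genes, by the fold rule. Each array alone changed the counts, since it needs no agreement. With array 2 alone (without replicate 1), 1 of the 8 genes and 13 others were past the fold rule in the direction of RNA A. In the direction of RNA B, 0 of the 8 genes and 1 other were past it. With array 1 alone (without replicate 2), the counts were 0 and 1 for RNA A, and 0 and 3 for RNA B. The share of all genes past the rule on 1 array was not worked out, so these counts have no background beside them. Over all settings the counts thus ranged from 0 to 1 for the 8 genes. For the others they ranged from 0 to 13 (RNA A) and from 0 to 3 (RNA B). The median log2 ratio of the 8 genes was 0.10 and lay between 0.09 and 0.10 under every alternative with both arrays, but was 0.36 on array 2 alone and -0.08 on array 1 alone, a change of sign. The mean log2 ratio kept its sign in all 8 genes under every alternative with both arrays. The number brighter in green on both arrays was 6, or 7 where all probes of a gene were averaged, since Elavl4 then joined. All 9 probes were well above background in both RNAs on both arrays, and limma intervals reached 1.76-fold.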
